A study of Homo sapiens with 6 samples.

Results

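The regions described here are 816 probe sets of 729 genes whose signal was higher in amiloride-treated Huh-7 cells than the level of their gene accounted for, out of 356353 probe sets of 18674 genes that were examined. They were chosen by the array values themselves. A probe set was selected where the mean log2 intensity under amiloride exceeded that in untreated cells by at least 1.585 (3-fold), where this ratio exceeded the difference in the level of the gene by at least 1.585, and where the mean profiles of the gene over its probe sets correlated between the groups at r of at least 0.7. The level of a gene was the median over its probe sets, and the ratio less the difference in gene level is called the splicing index difference. Since all 6 arrays entered the choice, the values of the members on these arrays are a description and no test of them is given. The chosen probe sets were 0.229% of those examined and 3.9% of the genes. The same rule with both signs turned found 1358 lowered probe sets (0.381%) in 1268 genes (6.79%), and 73 genes held probe sets of both kinds.

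Huh-7 is a human hepatoma line, and amiloride is a potassium-sparing diuretic, a blocker of the sodium channels of epithelia and of sodium-proton exchangers. One group of 3 arrays held RNA of cells kept in 0.5 mM amiloride for 24 hours. The other group of 3 arrays held RNA of untreated cells of the same line after 24 hours. The drug stock was made in DMSO, the labels name no vehicle for the untreated cells, and each array is labelled as a biological replicate, so the spread between arrays is that between replicate cultures of 1 line. Expression was read on the Human Exon 1.0 ST array.

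Most human genes are transcribed as a precursor from which introns are removed, and exons may be kept or skipped in the process. Transcripts may also start at another promoter or end at another polyadenylation site. An exon array carries a probe set, a small group of short probes, for nearly every known or predicted exon, and a probe set that moves apart from the others of its gene is read as a sign that a piece of the transcript was used more or less often. SR proteins and hnRNPs are RNA-binding factors that steer such choices. The array does not read exon junctions, so what a single probe set measures is the abundance of the stretch it hybridizes to, together with any other transcript it matches.

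The 6 arrays differed in brightness, with median intensities of 12, 4.71 and 6.26 under amiloride and of 13.1, 5.08 and 6.42 in untreated cells. A difference in scale between arrays cancels in the splicing index of an array, the log2 intensity of a probe set minus the median of its gene on that array. Averaged over the arrays of each group, this index differed by at least 1.585 in 663 of the 816 (81.2%), fewer than by the rule, which takes the gene level on group means. Of the hepatocyte and hepatoma markers, 9 were measured, with gene levels from percentile 96.3 upwards, and with albumin (ALB) and alpha-fetoprotein (AFP) above percentile 99.9. The 3 leukocyte markers lay at percentiles 2.01 (PTPRC) to 32.7 (CD14) and the 3 endothelial markers at 21.2 to 31.7. The 4 fibroblast markers lay at 2.16 (DCN) to 63.6 (COL1A2), with COL1A1 at 54.5 and PDGFRB at 44.2, and the part of fibroblast genes in the results was not tested. More transcripts that hold a stretch and more RNA of the cells that make it cannot be told apart in such bulk samples.

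The gained probe sets were of moderate brightness under amiloride and dim in untreated cells. Their mean log2 intensity under amiloride had a median of 4.51 (range 1.67 to 9.70), against 2.27 (0.00 to 8.03) in untreated cells. The splicing index difference had a median of 1.84 and reached 3.65, and the log2 ratio had a median of 2.09. The levels of the genes themselves moved little, with a median difference of 0.21 on the log2 scale. In 257 of the 816 (31.5%) the gene level was lower under amiloride although the probe set was higher. Over all probe sets examined the gene level was lower in 45.2%. In 54 members (6.62%) the gene level was higher by more than 1, near the 6.23% of all. At least 1 untreated array was at the floor of intensity 1 in 279 (34.2%), against 3.45% of all. All 3 were in 11 (1.35%, against 0.0963% of all), where the ratio is only a lower bound. In 3 members (0.368%) an amiloride array lay at the floor, against 3.64% of all.

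Array by array, untreated replicate 1 stood apart. The splicing index of the gained probe sets had medians of -0.11, -0.21 and -0.05 on the 3 amiloride arrays, against -3.13, -1.63 and -0.93 on untreated replicates 1, 2 and 3. The index was lowest of the 6 on untreated replicate 1 in 617 probe sets (75.6%), on untreated replicate 2 in 138 (16.9%) and on untreated replicate 3 in 56 (6.86%). Over all probe sets examined these shares were 24.9%, 19.7% and 12.1%. Among all of them untreated replicate 1 was the array most often lowest and, at 28.8%, also the one most often highest. Taken by replicate number, the amiloride array exceeded the untreated array by a median of 3.06 for replicate 1, 1.42 for replicate 2 and 0.96 for replicate 3, against -0.09, 0.01 and -0.01 over all probe sets. The index was higher under amiloride in all 3 replicate numbers in 654 probe sets (80.1%), against 12.6% of all. The groups did not overlap in 461 (56.5%), a share raised by the choice, where 4.67% of all probe sets examined had the lowest amiloride index above the highest untreated one.

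**Figure D1:**
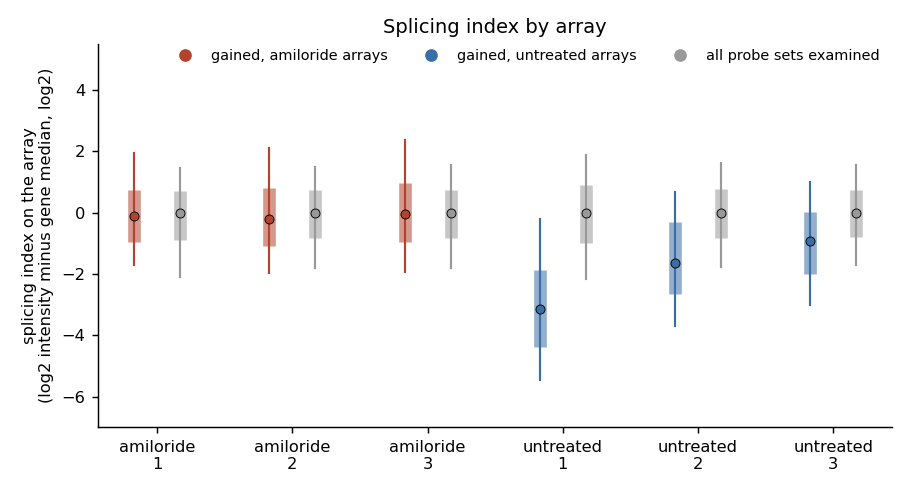
Splicing index (log2) of the gained probe sets and of all probe sets examined on each of the 6 arrays, with the median as a point, the middle 50% as a thick bar and the range from the 10th to the 90th percentile as a thin line. The gained probe sets have medians of -0.11, -0.21 and -0.05 on the amiloride arrays and lie lower on the untreated arrays, lowest on untreated replicate 1 at -3.13.

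Leaving out single arrays showed how far the list depended on each. Of the 816, 247 (30.3%) still met the rule without untreated replicate 1 and 410 (50.2%) without amiloride replicate 1, while 66.7% to 80.3% did so without any 1 of the other 4 arrays. The lowered probe sets leaned on another array: 17.4% of them met their rule without untreated replicate 2. In 1169 of the 1358 (86.1%) the index was highest on that array, against 18.7% of all probe sets. Only 70 gained probe sets, in 65 genes, met the rule without any 1 of the 6 arrays, which is 0.0196% of those examined. All 70 passed 1.585 with the gene level taken array by array as well. In these 70 the difference between amiloride and untreated arrays had medians of 2.83, 2.36 and 1.85 for replicates 1, 2 and 3. The index was lowest on untreated replicate 1 in 40 of them, on replicate 2 in 20 and on replicate 3 in 10. The groups did not overlap in 65 of the 70, and 44 probe sets of 40 genes in addition had no array at the floor.

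**Figure D2:**
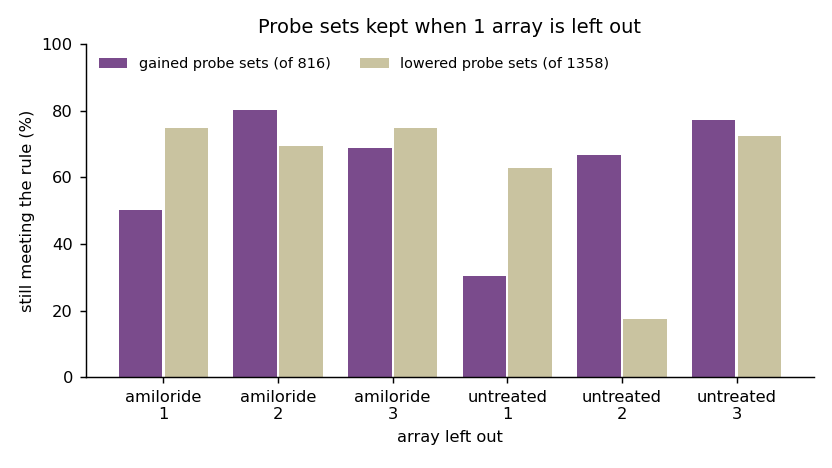
Percentage of the 816 gained and of the 1358 lowered probe sets that still met their rule when the array named on the horizontal axis was left out. The gained set is reduced most without untreated replicate 1 (30.3% kept) and the lowered set without untreated replicate 2 (17.4% kept).

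A reading that the choice did not use was had by choosing probe sets on the 4 arrays of 2 replicate numbers and reading the third pair. Of 606 probe sets chosen without replicate 1, 65.5% had a higher index under amiloride in replicate 1, where 45.9% of all probe sets did, and 20.8% passed 1.585 again (95% Wilson interval 17.7% to 24.2%), against 6.26% of all. Of 2457 chosen without replicate 2, 58.3% had a higher index under amiloride in replicate 2, against 50.8% of all. The bound of 1.585 was passed there by 9.04% (8.0% to 10.2%), against 2.46% of all. Of 2951 chosen without replicate 3, 53.1% had a higher index under amiloride in replicate 3, against 48.6% of all. The bound was passed there by 4.10% (3.4% to 4.9%), against 1.15% of all. The chosen probe sets passed the bound in the same direction more often than all probe sets in each pair, yet most did not pass it, and the medians on the pair left out were 0.51, 0.19 and 0.06. The chosen sets also passed the bound in the opposite direction in 6.11%, 5.62% and 3.05%, against 8.67%, 4.61% and 1.57% of all. The intervals cover counting over probe sets of 1 pair of arrays and not the spread between cultures. The probe sets chosen without each of the 3 numbers were 79, in 74 genes, and all 79 belong to the 816.

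**Figure D3:**
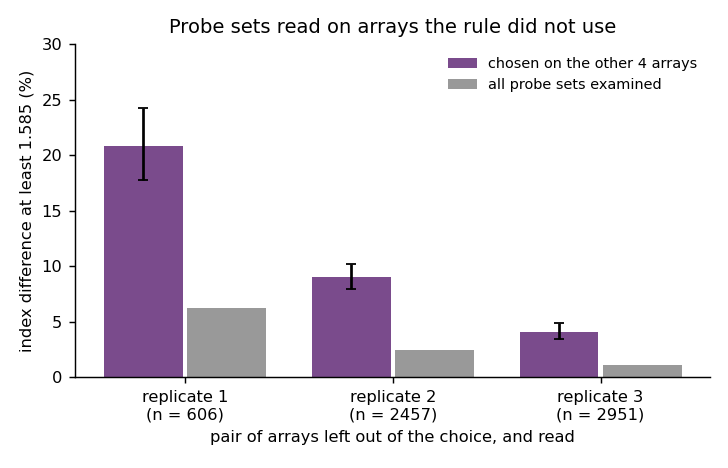
Percentage of probe sets with an index difference of at least 1.585 on the pair of arrays (amiloride and untreated of 1 replicate number) that was left out of the choice, for the probe sets chosen on the other 4 arrays and for all 356353. Error bars are 95% Wilson intervals, and the chosen probe sets lie above all probe sets in each pair, at 20.8%, 9.04% and 4.10%.

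Across all bright probe sets, limma on the splicing index of the 6 arrays called 0 of 269283 probe sets higher (0%) and 0 lower at an adjusted p of 0.05. At an unadjusted p under 0.05 it gave 4986 higher and 7317 lower, and the smallest adjusted p was 0.947. Of the members, 550 were in this fit. The median standard error of their index difference in the fit was 0.69 on the log2 scale (0.26 to 3.12), against 0.37 over all probe sets tested. The fit took the gene level array by array from bright probe sets only, so its differences are not those of the rule. For MT1DP probe set 3662175 the difference was 0.17 in the fit and 1.74 by the rule.

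The gained probe sets with the largest differences among those kept without any 1 array, with no overlap and no array at the floor, came from genes of varied function. CYP1A2, the hepatic cytochrome P450 that oxidizes caffeine, led them. Its probe set 3601834 read 9.05, 8.54 and 8.95 (log2 intensity) under amiloride, against 6.23, 5.39 and 4.58 in untreated cells. All 3 amiloride arrays lay over 2 log2 units above the highest untreated array, and the level of the gene over its 8 probe sets differed by -0.06. The probe set lay above the median of its gene on every array, with indices of 4.79 to 5.49 under amiloride and 0.84 to 2.71 in untreated cells. The gene level is thus that of dimmer probe sets, and whether this probe set reads another transcript was not determined. The splicing index difference was 3.51 (SD 0.35 under amiloride and 0.96 in untreated cells, n = 3 each), a 10.9-fold ratio. CTC1 encodes a subunit of the CST complex that helps to replicate telomere ends. Its probe set 3744326 read 8.44, 7.96 and 8.79 under amiloride, against 4.44, 5.41 and 5.29 in untreated cells, with an index difference of 3.27. The SD of its index was 1.40 under amiloride and 1.45 in untreated cells. The amiloride arrays were again all above the untreated ones. ZNF44, a zinc finger protein, had a probe set (3851313) at 8.92, 7.51 and 9.04 under amiloride and at 2.81, 6.15 and 6.52 in untreated cells, with an index difference of 3.23. Here untreated replicate 1 was far below the other untreated arrays, and the rule was met without it as well.

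Some members of this group act in membrane traffic or the cytoskeleton, an ordering made for description after their values were seen. SEC13, a coat protein of vesicles that leave the endoplasmic reticulum and a part of the nuclear pore, had neighbouring probe sets in the group. Probe set 2662687 read 6.54, 4.39 and 5.00 under amiloride, against 2.32, 1.58 and 2.32 in untreated cells (index difference 2.81). Probe set 2662688 read 6.44, 4.48 and 4.62 under amiloride, against 3.88, 2.59 and 2.28 in untreated cells (1.84). In both the amiloride arrays were all higher. ARHGAP5 also had 2 probe sets with successive numbers. Probe set 3531526 had an index difference of 2.46, and the much brighter 3531527 read 8.85, 8.98 and 8.91 under amiloride, against 5.44, 5.86 and 6.54 in untreated cells, with an index difference of 2.0. The gene level of ARHGAP5 was itself higher by 0.97. GOSR2, a Golgi SNARE, had an index difference of 2.56, TTLL3, a ligase that adds glycine to tubulin, of 2.53, LMO7, a LIM-domain protein at cell junctions, of 2.58, and ODF2, a protein of centriolar appendages, of 2.42.

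ODF2 had the tightest index of the 20 leading probe sets. Probe set 3190504 had an index of 0.17, 0.24 and 0.25 on the amiloride arrays, against -2.22, -2.10 and -2.04 on the untreated arrays. The gap was over 2 log2 units and the SD 0.04 and 0.09. G3BP1, a core protein of stress granules, had a similarly even probe set (2836015), with log2 intensities of 3.99, 3.13 and 2.99 under amiloride and 1.98, 0.98 and 1.34 in untreated cells. Its index difference was 2.06 (SD 0.25 and 0.03). This probe set was dim and lay below the median of its gene on every array. Its mean index was -3.16 under amiloride and -5.38 in untreated cells.

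Genes of RNA handling and translation in the group were few and are named here after their values were seen. WTAP, a regulatory subunit of the enzyme that methylates adenosines in mRNA, had a probe set (2934124) at 6.58, 5.39 and 6.15 under amiloride, against 2.81, 2.32 and 4.32 in untreated cells. All 3 amiloride arrays were higher, and the index difference was 2.74. EIF4G3, a scaffold of translation initiation, read 5.51, 3.81 and 3.84 under amiloride, against 1.40, 0.90 and 2.51 in untreated cells, with an index difference of 2.77. LUC7L, a relative of a yeast U1 snRNP protein, had an index difference of 1.96 and SCAF4, which binds the tail of RNA polymerase II, one of 1.99 beside a gene level higher by 1.16. CHTOP, an mRNA export factor kept without any 1 array, had one of 2.80 with untreated replicate 1 at the floor.

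Among the remaining leading probe sets were those of AIFM3 (2.76), CNTN4 (2.88), SLC44A1 (2.67), C19orf53 (2.49), SPINK1 (2.48), MRPL37 (2.46), NR2F2 (2.46) and EID2 (2.39). That their groups did not overlap in the index was a condition of the choice. AIFM3 is a mitochondrial relative of the apoptosis-inducing factor. Its probe set 3937817 was bright in both groups, at 9.16, 8.48 and 9.17 under amiloride and at 6.94, 6.01 and 6.15 in untreated cells. SLC44A1 is a choline transporter, SPINK1 a secreted trypsin inhibitor, MRPL37 a protein of the mitochondrial ribosome, and NR2F2 the nuclear receptor COUP-TFII. The NR2F2 probe set 3610187 had nearly equal indices of 1.14, 1.26 and 1.26 under amiloride, against -1.32, -1.02 and -0.03 in untreated cells, so the spread lay on the untreated side.

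**Figure D4:**
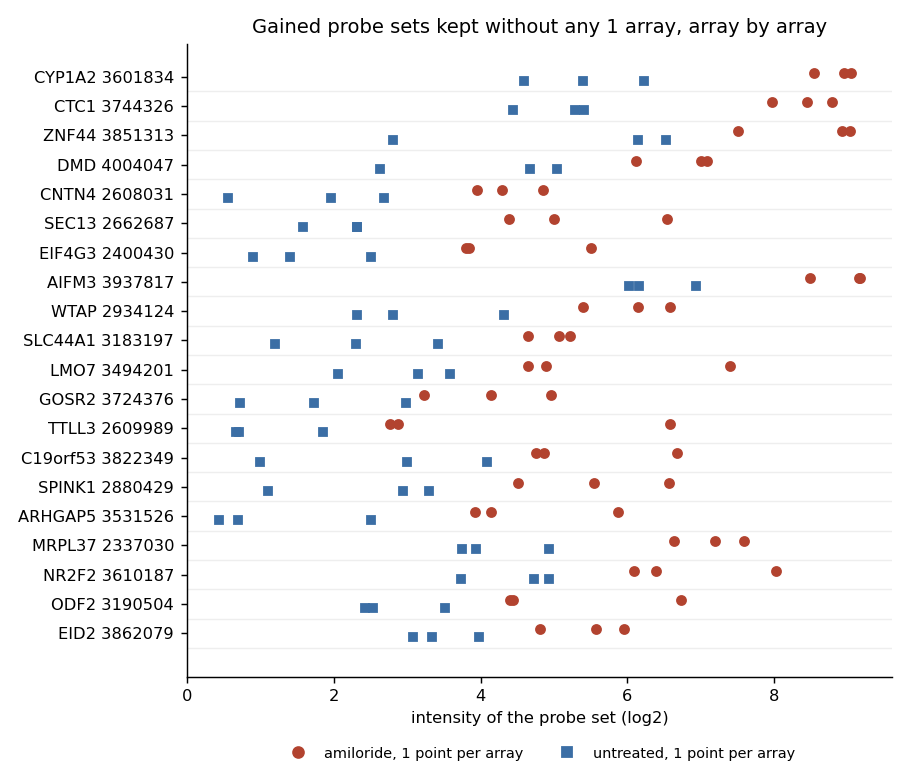
Log2 intensity on each array of the 20 gained probe sets with the largest splicing index difference among those kept without any 1 array, with no overlap in the index and no array at the floor. Circles are amiloride arrays and squares untreated arrays (n = 3 each), and the amiloride arrays lie to the right in every row, as for CYP1A2 with 9.05, 8.54 and 8.95 against 6.23, 5.39 and 4.58.

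Most genes, 661 of 729, had 1 gained probe set, 55 had 2, 7 had 3 and 6 had 4. Genes with a gained probe set had a median of 24 probe sets, against 16 over all genes, so longer genes had more chances to enter. The 6 genes with 4 were DMD, PSPC1, ENY2, CFL2, NUP42 and MT1DP, and in several of them the gained probe sets lay side by side. Probe-set numbers followed genome order. On each strand, the median numbers of genes rose with their position on 22 chromosomes (Spearman correlation 0.90 to 1.00 for the plus and 0.88 to 1.00 for the minus strand, across genes as a description). The numbers within a gene were therefore taken to run the same way, so that low numbers lie towards the 3′ end of a minus-strand gene.

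PSPC1 encodes a protein of paraspeckles, nuclear bodies built on a long noncoding RNA, and lies on the minus strand. Its 4 gained probe sets were the first 4 of 19 by number, the 3′ side, with index differences of 1.63, 2.14, 1.63 and 1.95. The other 15 ranged from -1.49 to 0.55 with a median of 0.04. Probe set 3503980 read 6.52, 3.70 and 4.52 under amiloride, against 2.53, 1.85 and 2.55 in untreated cells. Probe set 3503985 read 6.53, 3.78 and 4.48 under amiloride, against 2.29, 2.06 and 3.20 in untreated cells. In both, every amiloride array was above every untreated array, and both were kept without any 1 array. Probe set 3503981 did not overlap either but was lost without each of 4 arrays. In 3503978 the groups overlapped, with untreated replicate 1 at 4.66 against 1.42 and 1.66 on the other untreated arrays. Probe sets 3503978 and 3503981 had differences of 1.41 each, under the bound, with the gene level taken array by array. Both were also under the bound with dim probe sets left out of the gene level. Probe sets 3503980 and 3503985 passed the bound in both settings, with 1.91 and 1.72 array by array.

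DMD encodes dystrophin, which links the cytoskeleton of muscle to its membrane, and the gene also makes short transcripts from internal promoters towards its 3′ end. It lies on the minus strand. Its gained probe sets were at places 1, 2, 4 and 10 of 116 by number, with index differences of 3.04, 2.33, 2.29 and 2.19. With dim probe sets left out of the gene level they were 1.97, 1.26, 1.21 and 1.11, of which 1 passed 1.585. A change of the gene level shifts all probe sets of the gene alike, so the order along it holds while the size does not. Of the first 29 by number, at the 3′ side, 26 had an index difference above 0 and 20 above 1, with a median of 1.40. The following 3 stretches of 29 had medians of 0.12, -0.08 and 0.29, with 0, 0 and 5 probe sets above 1. The shift was thus shared by a long stretch, of which the gained probe sets were the upper end. The gene level over all 116 differed by -0.42. Probe set 4004047 read 7.0, 7.09 and 6.12 under amiloride, against 2.64, 4.67 and 5.04 in untreated cells, and every amiloride array was higher. It alone of the 4 was kept without any 1 array. The gene also held 2 lowered probe sets, 1 in each of the 2 stretches that follow the first 29.

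ENY2 is a subunit shared by the SAGA and TREX-2 complexes, which act in transcription and mRNA export. Its gained probe sets were at places 8, 11, 12 and 14 of 14, and the first 7 had index differences from -0.64 to 0.80. The strand of ENY2 was not used here. Probe set 3111560 read 8.25, 7.03 and 7.70 under amiloride, against 5.67, 4.5 and 5.70 in untreated cells, and 3111557 read 7.93, 6.75 and 6.86, against 6.0, 4.75 and 5.09. The groups did not overlap in the index of any of the 4, and 3111560 and 3111551 were kept without any 1 array. With the gene level taken array by array, 3111557 had a difference of 1.48, under the bound.

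CFL2, the muscle form of the actin-severing protein cofilin, lies on the minus strand. Its gained probe sets were at places 2, 5, 12 and 13 of 16. The 9 others among the first 13 all had index differences above 0, from 0.34 to 1.47, while the last 3 were between -0.65 and -0.39. None of the 4 was kept without any 1 array, 3 of them had differences of 1.23 to 1.31 with the gene level taken array by array, and the largest difference, 2.81 in 3560678, rested on untreated replicate 1, which was at the floor beside 2.81 and 3.81 on the other untreated arrays. NUP42, a nuclear pore protein that acts in mRNA export and lies on the plus strand, had its gained probe sets at places 9, 11, 12 and 13 of 13, the 3′ side, with index differences of 1.73 to 2.10. With the gene level taken array by array these differences were 0.76 to 1.13, all under the bound. Each was lost without 5 or 6 of the arrays. The difference in replicate 1 was 3.22 for probe set 2992793, against 0.13 and 0.05 in replicates 2 and 3. MT1DP, a metallothionein pseudogene whose sequence is close to that of active metallothioneins, had 4 at places 3, 6, 7 and 8 of 10, with 1.65 to 2.42. With dim probe sets left out of the gene level 3 of them had a negative difference and the fourth 0.12, so its direction depended on the gene level used, and probes there may read other metallothionein transcripts.

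Of genes with 3, WNK1, a kinase that regulates chloride cotransporters, had probe sets 23, 24 and 25 of 65 gained, with index differences of 1.96, 1.97 and 1.90. The other 62 had a median of -0.01. The groups did not overlap in any of the 3, although none was kept without any 1 array. EIF2AK4, the kinase GCN2 that senses amino acid shortage, had probe sets 35, 36 and 41 of 49 gained, with its gene level higher by 1.52.

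**Figure D5:**
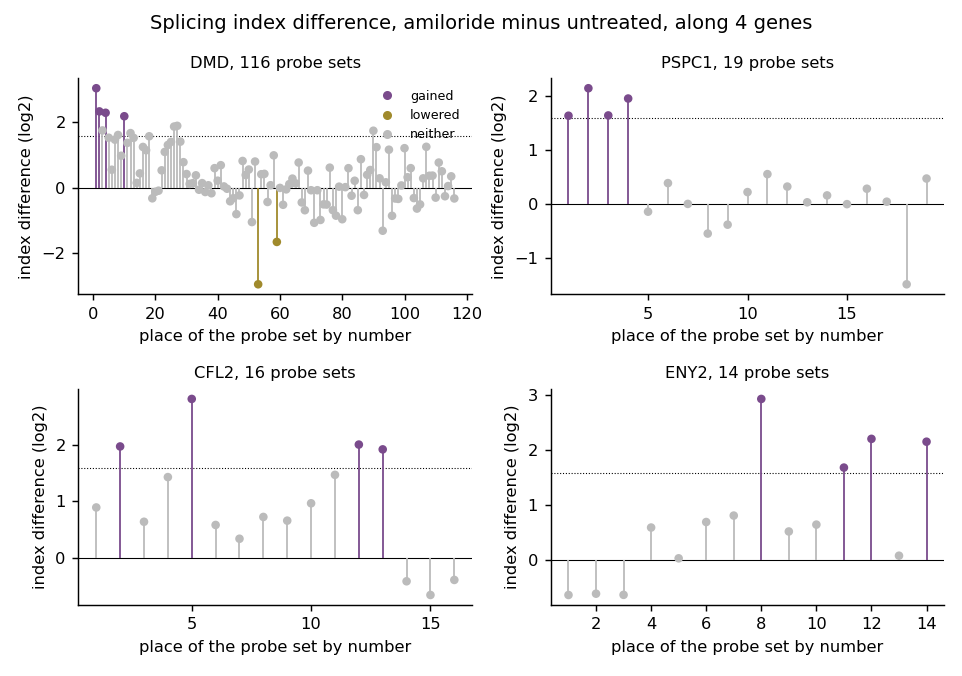
Splicing index difference (amiloride minus untreated, log2) of every probe set of DMD, PSPC1, CFL2 and ENY2, ordered by probe-set number, with gained and lowered probe sets in colour and the bound of 1.585 as a dotted line. In PSPC1 the first 4 of 19 are gained and the others lie between -1.49 and 0.55, and in DMD 20 of the first 29 lie above 1.

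Across the members, the neighbours by number were shifted in the same direction, in part because some neighbours were members themselves. Probe sets of the same gene whose number differed by 1 from a gained one had a median index difference of 0.22 (n = 1072), 64.6% were above 0 and 4.20% passed 1.585. Over neighbours of all probe sets the median was -0.03, 46.6% were above 0 and 0.379% passed. At a distance of 5 numbers the median beside gained probe sets was 0.05 and 1.05% passed. Neighbours share the arrays and in part the exon with the member, so they are no independent measurement. Of 87 pairs of successive gained probe sets in 1 gene, 20 had numbers that differed by 1. Each of these 20 pairs entered the neighbours from both sides. Most of the 45 neighbours at a distance of 1 that passed 1.585 were therefore gained probe sets, and their share is largely a product of the choice.

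By place along the gene, fewer gained probe sets lay at the 5′ end, and more at the 3′ end, than the places of all probe sets give. The place was had for 633 members in genes with a strand in RefSeq (GRCh38) and at least 10 probe sets. The first 10% of the places along the gene held 34 of them (5.37%), where it held 9.92% of all probe sets and 11.0% of the lowered ones. The last 10% held 94 (14.8%), against 10.1% of all and 12.8% of the lowered ones. Between them, stretches of 10% held 9.64% to 10.7% and stretches of 20% held 19.7% to 19.9%. Over all probe sets the index difference in the first 10% had a median of -0.20, and in the other stretches medians between -0.05 and -0.01, so the 5′ end was lower under amiloride in general.

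In 36 members (4.41%) the number lay more than 5000 from the median number of the gene, against 2.82% of all probe sets examined and 2.14% of lowered ones. Whether these lie at another place, in another copy or on the other strand was not determined, and what they measure is uncertain. They include RPL7, RPL7A, RPL37, ABCE1, SEPHS1 and TIMM8B, and 2 of the 70 kept probe sets, those of LINC03124 and TBC1D8.

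Shares of genes with a gained probe set are given by list beside the 3.9% of all genes. The lists differ in gene length, and these shares were not tested. Dynein heavy chains, motors with a median of 93.5 probe sets a gene, had a gained one in 2 of 14 genes (14.3%) and a lowered one in 42.9%. Of 96 genes with ribosomal protein symbols, the structural parts of the ribosome with some pseudogenes and 1 binding protein, 11 (11.5%) had one, where 3.9% of all genes did, and 6 (6.25%) had a lowered one. RPS24 probe set 3253457 read 7.99, 5.35 and 6.19 under amiloride, against 4.88, 3.66 and 4.06 in untreated cells, with no overlap in the index and an index difference of 2.14, and was lost without amiloride replicate 1. RPL10 probe set 3996319 had an index difference of 2.04, or 0.49 with dim probe sets left out of the gene level, and RPL27A probe set 3319619 one of 2.01. None of the 11 was kept without any 1 array. Ribosomal protein genes have many processed copies, so their probe sets may read several transcripts.

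Of 39 SR protein and hnRNP genes 4 (10.3%) had a gained probe set, and 1 a lowered one. SRSF1, an SR protein that promotes exon inclusion, had 1 of 19. Its probe set 3764130 read 6.83, 4.27 and 4.69 under amiloride, against 0.52, 3.15 and 3.37 in untreated cells, with an index difference of 2.23 and no overlap in the index, and was lost without untreated replicate 1, the low array. TRA2A, an SR-like splicing activator, had the same form. It read 7.90, 4.45 and 5.29 under amiloride, against 1.58, 3.24 and 4.21 in untreated cells, with an index difference of 2.14, and was lost without untreated replicate 1. HNRNPH1 (1.70) and the pseudogene HNRNPA1P27 (2.34) overlapped between the groups. Zinc finger proteins, mostly DNA-binding repressors, had 34 genes of 563 (6.04%) with a gained probe set and 33 (5.86%) with a lowered one.

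Among lists of long genes, collagens had a gained probe set in 3 of 46 genes (6.52%) and a lowered one in 28.3%, myosins in 3 of 39 (7.69%) and 28.2%, and ABC transporters in 3 of 47 (6.38%) and 23.4%. Cadherins and protocadherins had 0 of 86 gained and 8 lowered. COL5A3 (2.74) rested on untreated replicate 1, which was at the floor, and COL7A1 (2.32) was lost without untreated replicate 2. LAMA1, a basement membrane laminin, had a kept probe set (3797622) at 7.42, 6.21 and 7.57 under amiloride, against 5.82, 4.17 and 4.60 in untreated cells, with an index difference of 2.25. Its groups did not overlap in the index (SD 0.55 and 0.05).

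In lists tied to the drug or the cell the shares lay near the 3.9% of all genes. Ion channels, among them targets of amiloride, had 5 of 173 genes (2.89%), among them, without overlap between the groups, KCNH7 (2.06), TRPM3 (1.93) and TRPC2 (1.89), each lost without 1 or more untreated arrays. Solute carriers had 13 of 387 (3.36%), with SLC44A1 kept. Cytochromes P450 had CYP1A2 and CYP20A1 of 61 (3.28%), and plasma proteins FGB alone of 25 (4.0%). Mitosis and cytokinesis had ANLN, the contractile ring scaffold anillin, alone of 24 (4.17%). Its probe set read 8.05, 5.86 and 6.06 under amiloride, against 1.28, 5.99 and 6.14 in untreated cells, so that untreated replicate 1 made its difference of 1.91. KRT18, the keratin of hepatocytes, had 1 of the largest differences of all (3.02). Its probe set 3415603 read 9.21, 4.14 and 5.92 under amiloride, against 4.04, 3.42 and 4.46 in untreated cells, and was lost without amiloride replicate 1, the high array.

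Of 23 listed genes that the study names singly, SRSF1, HINFP and WAC had a gained probe set each. HINFP, a transcription factor of histone H4 genes, had probe set 3351938 at 7.27, 6.0 and 5.93 under amiloride, against 5.49, 2.58 and 3.32 in untreated cells. The index difference was 1.93 with no overlap in the index, it was lost without untreated replicate 1 or 3, and the gene held 1 lowered probe set as well. WAC, a WW-domain adaptor, had probe set 3240411 at 8.54, 3.8 and 4.39 under amiloride, against 2.02, 2.07 and 3.67 in untreated cells, an index difference of 1.65 beside a gene level higher by 1.34. It was lost without amiloride replicate 1 or untreated replicate 2. The other 20 had none. The study followed the splicing of the apoptosis regulator BCL2L1, the kinase HIPK3 and the receptor MST1R by RT-PCR. Their highest index differences here were 0.58, 1.15 and 0.55. By RT-PCR the study also reported altered splicing of genes picked from its array. These were APAF1, CRK, MBNL2, HINFP (named MIZF there), WAC, TENT4B (PAPD5) and BIRC5 (survivin). The gained probe sets of HINFP and WAC were not matched to the isoforms seen there. From its exon array the study also reported lowered exons of MST1R, but not of BCL2L1 or HIPK3. The highest values do not bear on lowered exons. DNAH8 and NAALAD2, which the study also names and which were added after their values were seen, had 1 gained probe set each. Their index differences were 2.06 and 2.13, with overlapping groups. The supplementary list of lowered exons of the study holds further genes with a gained probe set here. Among them are DMD, ODF2, COL7A1, ANKS1B, NF1, MTHFD1 and GON4L. The full overlap with that list was not counted, and the gained probe sets were not assigned to its exons. The bounds of the study on its array took lowered exons only, so its array calls, for these genes too, go the other way. PRKDC, a kinase of DNA end joining, reached 1.92 but with a log2 ratio of 1.01.

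The 73 genes with probe sets of both kinds were led by CSMD1, a large complement-related membrane protein (3.50 and -3.78), CD163L1, a scavenger receptor (3.65 and -2.72), and RYR3, a calcium release channel (2.36 and -3.69). CD163L1 held the largest difference of all 816. Its groups overlapped in the index, as did those of CSMD1. A gained probe set was kept without any 1 array in 4 of the 73, DMD, LAMA1, PIGG and SUGT1P3.

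At the edge of the rule, values passed the bounds without a gap. Just inside the bound on the index difference lay GPATCH1, STAU1 and WEE1 at 1.59, and just outside it GPR132 and NECTIN2 at 1.58, with MATR3 at 1.58. On the ratio PPIL2, GNPDA2 and RPL36AL were just inside (1.59 each) and NHLRC3, DUSP18 and NOS2 just outside (1.58 each). On the profile correlation CAB39, TRAPPC2B and BST1 were just inside (0.70, 0.71 and 0.71) and DBF4B, CUL4A and CTBP2 just outside (0.70 each). The index difference alone was passed by 1392 probe sets and the ratio alone by 7430, and both, at any correlation, by 911.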

How the data were processed

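Per the deposited table, values are linear intensities, 1 per probe set and array. The authors removed bias with the background probes, normalized the arrays and summarised probe sets by model-based expression in dChip, with genome build hg18. The methods name an earlier dChip release than the series text does. All 6 array columns were used and 0 were left out. Here log2 was taken of each intensity, with values under 1 set to 1. Of 1408285 probe sets, 357582 had 1 gene symbol, 15322 several and the rest none. Of 19560 symbols, 16472 were current in RefSeq (GRCh38), 2966 were replaced through a unique synonym and 122 were kept. Genes with at least 3 probe sets entered. Coordinates were not used, since the builds differ, except for the order of genes.

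The members and gene lists were chosen with earlier results of these data known. Named probe sets were the 20 with the largest index difference among those kept without any 1 array, with no overlap and no floor value, those in the genes with most members, in genes the study names singly, up to 3 of each gene list without overlap, and those nearest each bound. Others were named after their values were seen.

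Splicing indices were fitted in limma 3.58.1 (R 4.3.3, lmFit and eBayes, two-sided, Benjamini-Hochberg) on probe sets at or above a mean log2 value of 2.80, the median of all. The fit used the contrast of the rule and gives errors for members only. The rule and the counts were run in Python 3.11.15. Rule and fit were tested on simulated data. Replicate numbers come from the labels. Index deviations of same-numbered arrays correlated at 0.167, 0.177 and 0.250, so the numbers were treated as pairs in an alternative fit. The alternatives were 16 added before log2, quantile normalization, median centring, the gene level as a mean, bounds of 2, no bound on the correlation, medians of arrays, bright probe sets only, no filter, a replicate block, leaving out arrays and, added after seeing the data, the gene level array by array. The number of arrays limits the precision.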

Additional observations from a re-analysis of the deposited data

How the results depend on the processing

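The 816 gained probe sets became 33 with 16 added before log2 (31 of them among the 816), 182 with bounds of 2, 420 with probe sets at or above the median only (353 shared) and 1637 with medians of the 3 arrays in place of means (371 shared). Quantile normalization gave 792 (636 shared), median centring 881, the gene level as a mean 869 and no bound on the correlation 911. The gene level taken array by array, an alternative chosen after seeing the data, gave 790 (663 shared). Leaving out single arrays gave 680 to 2895, the lowest without amiloride replicate 1 and the highest without untreated replicate 3, and leaving out both arrays of a replicate number gave 606 (without replicate 1) to 2951 (without replicate 3). Of those chosen on 4 arrays, the share past the bound on the pair left out was 15.6%, 12.3% and 5.44% for replicates 1, 2 and 3 with quantile normalization, against 20.8%, 9.04% and 4.10% as reported. It was 22.5%, 9.19% and 3.59% with bright probe sets only. The causes were not tested. With 16 added, 53 of 76 named index differences moved by more than the spread between replicates and 23 did not, with none reversed. With bright probe sets only 10 of the named differences moved by that measure, among them 3 of DMD (1.26, 1.21 and 1.11), 2 of ENY2 (1.25 in 3111557 and 1.72 in 3111560) and RPL10 (0.49), and 3 probe sets of MT1DP reversed, to -0.46 (3662172), -0.56 (3662175) and -0.66 (3662177).

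With the replicate block, which treats same-numbered arrays as pairs, limma called 0 probe sets higher and 0 lower, as it did in all other settings run, with 6023 higher and 8565 lower at an unadjusted p under 0.05. With 3 arrays a group and at least 1 untreated array at the floor in 34.2% of the members, low intensities limit how large a difference can be measured.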

Other observations

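Probe sets with no gene symbol whose number differed by 1 from a gained probe set, 461 in all, had a median index difference of -0.34 against the level of that gene, and 1.74% of them passed 1.585. Beside all probe sets examined the median was -0.30 and 0.394% passed. The array annotation gives them no gene, so they enter no comparison above.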
